A study of Mus musculus with 10 samples.

Results

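Colony-stimulating factors are secreted cytokines that keep myeloid cells and their precursors alive and drive their growth and maturation. The family described here was chosen by gene name, as a gene family and not by any measured value, and holds 8 of the 55573 genes in the deposited table. It has 3 ligand genes, Csf1 (M-CSF), Csf2 (GM-CSF) and Csf3 (G-CSF), and 5 receptor genes, Csf1r, Csf2ra, Csf2rb, Csf2rb2 and Csf3r.

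The study asked how inhibition of purine nucleoside phosphorylase (PNP), an enzyme that breaks down guanosine and deoxyguanosine, acts on TLR7, an endosomal receptor for guanosine together with uridine-rich RNA. RNA was sequenced from bone marrow–derived macrophages (BMDMs) of female wild-type (WT) C57BL/6 mice after 4 hours of treatment, in 5 groups with 2 libraries each. All groups were kept in DMEM with 10% FBS and 50 ng/mL M-CSF, so the protein product of Csf1 was present in every culture. The groups received vehicle; polyU, 5 μg of a single-stranded RNA of uridines complexed with the lipid DOTAP; PNPi+dG/rG, the PNP inhibitor ulodesine at 1 μM with 5 μM deoxyguanosine (dG) and 5 μM guanosine (rG); PNPi+dG/rG+polyU, all of these together, called the combination below; or R848, a synthetic TLR7 ligand, at 1 ng/mL. The labels give no group with DOTAP alone and no dates of culture or library preparation, so effects of handling and of treatment cannot be told apart.

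M-CSF acts on a receptor tyrosine kinase encoded by Csf1r, which macrophages need to survive and which they lose from the cell surface by shedding when activated. GM-CSF binds a specific α chain (Csf2ra) that signals together with the common β chain (Csf2rb), shared with the receptors for IL-3 and IL-5, while mice carry an additional β chain gene specific to IL-3 (Csf2rb2). G-CSF binds Csf3r, known above all from neutrophils, and activated macrophages are a known source of G-CSF and GM-CSF.

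Values are in CPM, read counts per gene scaled to a common total of all genes in each library. The libraries held between 14128124 and 38392591 reads on genes, so that 3 reads, taken here as the smallest detectable amount, stood for 0.0781 to 0.212 CPM. Depth was greatest in PNPi+dG/rG and smallest in the combination, and intervals and floors given below cover counting error only. The labelled cell type was checked against its markers: all 10 macrophage genes, among them Lyz2, Cd68 and Adgre1, had at least 3 reads in all 10 libraries and summed to between 16012 and 18645 CPM. In such bulk samples, fewer cells of a type and less RNA per cell cannot be told apart.

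Across the family, the ligand genes and the G-CSF receptor gene were the members that rose most, and Csf1r was the member that fell most in the combination. A gene was called at a Benjamini-Hochberg adjusted p under 0.05 in limma, over the 11978 genes tested, together with a change of at least 2-fold. All 8 members passed the filter of 1 CPM in at least 2 libraries, but Csf2 passed it only through R848, and Csf3 only through the combination and R848, so that both had to differ between some groups. Their counts are given as a description.

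With polyU alone, 1 member was called higher than in vehicle (Csf1) and 0 lower, beside 3.21% of all genes tested called higher and 0.776% lower. With PNPi+dG/rG alone, limma called 0 members, beside 0.0668% of genes higher and 0.00835% lower. At an unadjusted p under 0.05 there were 3 (Csf1, Csf2rb and Csf2rb2) among 1076 genes, and a fit on recovered read counts also called 0. With the combination, 4 members were called higher (Csf1, Csf2, Csf3 and Csf3r) and 0 lower, where 8.12% of all genes were higher and 14.3% lower. With R848 5 members were called higher (these 4 and Csf2rb) and 0 lower, where 8.89% of genes were higher and 30.3% lower. These comparisons share the vehicle libraries.

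Between treated groups, the combination exceeded polyU for 2 members (Csf1 and Csf3r), with 0 lower, beside 5.29% of genes higher and 10.2% lower. Against R848, the combination had 0 members higher and 1 lower (Csf2rb), beside 16.9% of genes higher and 3.86% lower. The interaction, which is the effect of PNPi+dG/rG in the presence of polyU minus its effect without polyU, was called above 0 for Csf1 and Csf3r and below 0 for 0 members, beside 4.55% and 8.87% of genes. The median log2 fold change of the 8 members was 1.38 in the combination and 2.10 in R848, each lying midway between Csf2rb and Csf3r. It depends on the rank of Csf2 and Csf3 above the middle: in the combination it was 0.47 with a pseudocount of 1, and 0.20 over the 7 members left by a filter on the mean, which drops Csf2. The median over all genes tested was −0.22 and −0.50.

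The scale matters for members with small changes, because CPM fixes the total of each library. Shifting every library so that its median tested gene lay at the same level, called centring here, moved the share of called genes that were higher from 36.2% to 48.9% in the combination and from 22.7% to 46.0% in R848, both against vehicle. It moved that share from 34.2% to 52.3% against polyU, from 81.4% to 58.4% for the combination against R848, and from 33.9% to 57.0% for the interaction. The median of all genes lay at 0.02 in both polyU and PNPi+dG/rG, at −0.24 for the combination against polyU, at 0.31 against R848 and at −0.27 for the interaction. Where a member changed direction on the centred scale, its centred value is given beside it.

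Csf1 encodes M-CSF, the growth factor on which these cultures depend. Its level was 4.83 and 6.63 CPM in the vehicle libraries, 17.1 and 20.2 CPM with polyU, 6.64 and 7.67 CPM with PNPi+dG/rG, 62.1 and 58.2 CPM with the combination, and 41.6 and 43.2 CPM with R848. Apart from vehicle and PNPi+dG/rG, whose nearest libraries lay at 6.63 and 6.64 CPM, the groups stood clear of each other. The mean ± SD (n = 2) rose from 5.73 ± 1.28 CPM in vehicle to 60.1 ± 2.76 CPM in the combination, a ratio of 10.5, while polyU alone reached a ratio of 3.25 and R848 a ratio of 7.40. On the log2 scale the change against vehicle was 1.72 with polyU (SE 0.14, adjusted p = 1.97e-07), 3.41 with the combination (adjusted p = 1.19e-11) and 2.91 with R848 (adjusted p = 4.04e-11).

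With PNPi+dG/rG and no polyU, both libraries lay above those of vehicle for Csf1, but the log2 change of 0.34 was not past the threshold (adjusted p = 0.438). Added to polyU, the same treatment raised it by 1.69 on the log2 scale (adjusted p = 6.63e-08), and the interaction was 1.36 (SE 0.19, adjusted p = 4.58e-05). The order of the group means was vehicle, PNPi+dG/rG, polyU, R848 and the combination. PolyU lay above PNPi+dG/rG (adjusted p = 2.20e-06) and R848 above polyU (adjusted p = 1.20e-06). At the top of that order, Csf1 was higher in the combination than in R848 by 0.50 (adjusted p = 0.00417), and with centred libraries by 0.12, where the difference was not past the threshold (adjusted p = 0.461, in a range of 5.25e-06 to 0.461 over all alternatives).

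Csf3 encodes G-CSF, the main growth factor of neutrophils. It had 0 and 3 reads in the vehicle libraries, 3 and 3 with polyU, and 1 and 1 in the deeper PNPi+dG/rG libraries. With the combination there were 91 and 84 reads, or 6.44 and 5.91 CPM, and with R848 3552 and 6135 reads, or 189 and 188 CPM. The 4 libraries of the combination and of R848 were thus far above the other 6, which lay at or below the floor of 3 reads. By pooled reads, Csf3 was 73.3-fold higher in the combination than in vehicle, with a 95% exact counting interval of 24.7 to 359. Against polyU it was 35.8-fold higher (16.1 to 98.9), and R848 exceeded the combination by 30.5-fold (26.2 to 35.6). PolyU against vehicle gave a ratio of 2.05 with an interval of 0.437 to 12.6, so no difference was detectable at this depth.

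Csf2 encodes GM-CSF, a cytokine that primes macrophages and dendritic cells. It had 0 reads in all 6 libraries of vehicle, polyU and PNPi+dG/rG. The combination gave 8 and 11 reads, or 0.566 and 0.774 CPM, and R848 gave 85 and 127 reads, or 4.51 and 3.89 CPM. Against a floor of 3 reads over the group, Csf2 was at least 7.96-fold higher in the combination than in vehicle and at least 7.78-fold higher than in polyU. With R848 it was at least 48.9-fold higher than in vehicle, and it exceeded the combination by 6.14-fold (95% exact counting interval 3.84 to 10.4). Csf2 and Csf3 thus shared the order in which R848 was highest, the combination next and the other groups at or near 0. For Csf1 the combination was highest, though its difference from R848 was not past the threshold with centred libraries.

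The limma calls of Csf2 and Csf3 hold less firmly than their reads, because a fitted fold against a group at or near 0 depends on the offset added before the logarithm. Against vehicle, the adjusted p in the combination was 0.0471 for Csf2 and 0.0340 for Csf3, and in R848 0.0157 and 0.00649. Csf2 missed the 2-fold call in the combination with a pseudocount of 1, and Csf3 missed the threshold without a filter on low values (adjusted p = 0.0666). A block on the replicate numbers also ended the Csf2 call in the combination (adjusted p = 0.0624). Fitting vehicle and R848 alone ended both R848 calls, with adjusted p = 0.0799 for Csf2 and 0.0972 for Csf3. The calls in the combination were lost for both genes without either library of that group. Csf3 was also lost there without any 1 library of polyU or PNPi+dG/rG, and Csf2 without either R848 library or vehicle library 2. In R848, Csf2 was lost without either R848 library or without library 2 of the combination. Over all alternatives, the adjusted p against vehicle ranged from 7.31e-08 to 0.210 for Csf2 and from 1.78e-12 to 0.104 for Csf3 in the combination.

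The difference of the combination from polyU was not called for Csf2 (adjusted p = 0.0509) or Csf3 (adjusted p = 0.228), nor was that from R848 (adjusted p = 0.671 and 0.235). With voom on reads recovered from the values, a setting added after the data were seen, both genes passed all of these. There the log2 difference of Csf3 in the combination was 4.95 from polyU and −4.92 from R848 (adjusted p = 8.20e-08 and 5.60e-16), and that of Csf2 was 4.60 and −2.56 (adjusted p = 9.11e-06 and 1.43e-06). Over all alternatives, the adjusted p from polyU ranged from 6.45e-12 to 0.395 for Csf3 and from 1.02e-07 to 0.224 for Csf2. From R848 it ranged from 3.75e-16 to 0.392 for Csf3 and from 3.04e-08 to 0.808 for Csf2. Their interactions, at adjusted p = 0.176 for Csf2 and 0.693 for Csf3 in the reported fit, reached 2.41e-04 and 1.05e-04 with voom, and over all alternatives lay between 9.34e-07 and 0.365 for Csf2 and between 1.58e-09 and 0.774 for Csf3.

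Within a library, the 2 low-abundance ligands can be compared per length of transcript. Per kb, Csf3 exceeded Csf2 by 6.44-fold and 4.32-fold in the libraries of the combination and by 23.7-fold and 27.3-fold in the R848 libraries. With R848 the mean level per length was 133 CPM per kb for Csf3, 8.02 CPM per kb for Csf1 and 5.25 CPM per kb for Csf2. With the combination the order of these genes was another: 11.4 CPM per kb for Csf1, 4.37 CPM per kb for Csf3 and 0.838 CPM per kb for Csf2. G-CSF transcripts were thus the most abundant of the family's ligand transcripts under R848, and M-CSF transcripts under the combination.

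**Figure D1:**
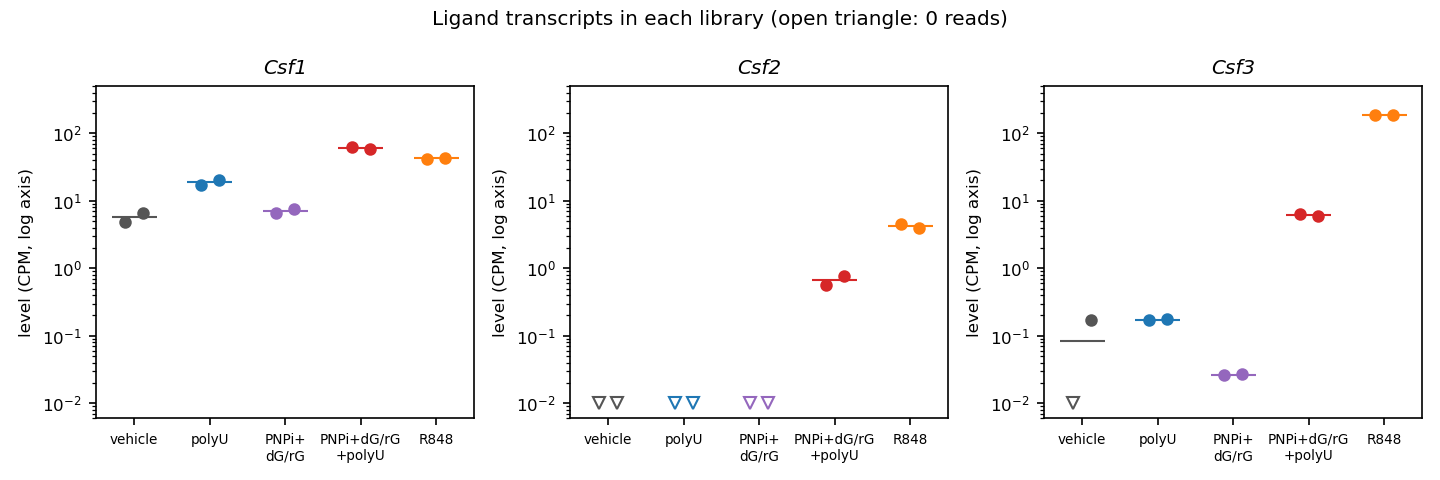
Level of Csf1, Csf2 and Csf3 in each of the 10 libraries, in CPM on a log axis, by treatment group. Points are libraries, horizontal bars are the means of the 2 libraries and open triangles are libraries with 0 reads, drawn at the foot of the axis. Csf3 reached 189 and 188 CPM with R848 against 6.44 and 5.91 CPM with the combination.

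The 3′ untranslated regions of the ligand genes carry AU-rich elements, through which decay factors shorten the life of cytokine mRNAs. The letters ATTTA were counted on the sense strand of the annotated 3′ untranslated region of each member, with overlapping copies counted. Csf2 had 9 copies in 317 bases, a density reached by 0.0922% of the 20600 genes compared. Csf3 had 6 copies in 669 bases (1.80% of genes as dense) and Csf1 had 4 in 2111 bases (36.5%). Csf1r had 3 in 1669 bases, and Csf2ra, Csf2rb, Csf2rb2 and Csf3r had 0. The stretch of 30 bases with the most copies is printed for each ligand, to show how closely its copies lie. Each is in the last exon, on the minus strand of GRCm38 at chr3:107741109-107741138 for Csf1 (exon 9) and chr11:54247329-54247358 for Csf2 (exon 4), and on the plus strand at chr11:98702984-98703013 for Csf3 (exon 5). Capitals mark the copies of ATTTA, which in Csf2 overlap by a base. A match is a description of the letters and not of binding, and its part in the changes of level was not tested.
Csf1: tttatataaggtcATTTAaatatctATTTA
Csf2: tttttaaatATTTATTTATTTATTTATTTA
Csf3: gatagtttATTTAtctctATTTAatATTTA

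RefSeq promoter sequences of GRCm38.p6 were searched for 5 of the 8 members; Csf3 and Csf2rb had no entry, and Csf1r was not searched. In the 250 bases before the gene start of Csf1, Csf2, Csf2ra, Csf2rb2 and Csf3r, both strands were searched for the κB consensus, the motif of NF-κB factors, and for TGANTCA, the motif of AP-1 factors. The κB consensus was found in Csf1, with 1 match starting 154 bases before the gene start, and 3.90% of all 32851 windows of this length hold a match. No window of these 5 genes held TGANTCA, which 6.75% of all windows hold. The RefSeq and GENCODE starts are the same for Csf1 and Csf2rb2, and lie 232 bases apart for Csf2, 109 for Csf3r and 11 for Csf2ra. For Csf2 the RefSeq start lies upstream, so the 232 bases directly before the GENCODE start were not searched. The lack of a match in Csf2 does not cover them. The Csf1 window is printed because Csf1 is the ligand gene that was detected in all groups and rose with polyU alone. It lies on the minus strand at chr3:107760470-107760719, directly upstream of the gene, with the match in capitals.
Csf1 promoter: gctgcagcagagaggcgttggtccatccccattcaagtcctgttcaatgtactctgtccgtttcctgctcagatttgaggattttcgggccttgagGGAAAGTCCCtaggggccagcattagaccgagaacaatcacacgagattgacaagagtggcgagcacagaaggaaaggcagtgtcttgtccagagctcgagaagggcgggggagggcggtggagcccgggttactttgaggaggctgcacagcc

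Among the receptors, Csf1r, which encodes the M-CSF receptor, was by far the most abundant. In vehicle it stood at 376 CPM per kb of the union of its exons, against 143 for Csf2ra, 81.7 for Csf2rb2, 47.8 for Csf2rb and 6.92 for Csf3r. Its level was 2140 and 2206 CPM in vehicle, 1987 and 1924 CPM with polyU, 2139 and 2125 CPM with PNPi+dG/rG, 1455 and 1416 CPM with the combination, and 1654 and 1727 CPM with R848. The libraries of the combination were the lowest, those of R848 came next, and neither group overlapped with another. Csf1r fell by 0.60 on the log2 scale in the combination (SE 0.04, adjusted p = 4.30e-10; centred −0.39), with a ratio of 0.661 to vehicle that is short of 2-fold.

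With R848 the change of Csf1r was −0.36 (adjusted p = 1.16e-07), but 0.23 with centred libraries, so that its direction rests on the scale. Against R848 the combination differed by −0.24 (adjusted p = 2.50e-05; centred −0.62), and the interaction was −0.42 (adjusted p = 5.88e-06), but only −0.13 with centred libraries (adjusted p = 0.0346). The order of the means was the combination, R848, polyU, PNPi+dG/rG and vehicle. PolyU was lower than PNPi+dG/rG (adjusted p = 0.0117) and R848 lower than polyU (adjusted p = 4.90e-05), while PNPi+dG/rG and vehicle were not told apart (adjusted p = 0.910). M-CSF transcripts and M-CSF receptor transcripts thus moved in opposite directions in the combination, on both scales.

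Csf3r, the G-CSF receptor gene, was the receptor that rose most. Its level was 23.2 and 26.8 CPM in vehicle, 44.0 and 50.0 CPM with polyU, 23.0 and 23.1 CPM with PNPi+dG/rG, 132 and 164 CPM with the combination, and 166 and 180 CPM with R848. Vehicle and PNPi+dG/rG were alike in level, polyU lay between, and the 4 libraries of the combination and R848 were the high ones. The ratio of means to vehicle was 1.88 with polyU, which is under 2-fold although its log2 change of 0.91 was past the adjusted p (2.36e-05). It was 5.93 with the combination (log2 2.56, SE 0.10, adjusted p = 2.93e-10) and 6.92 with R848 (log2 2.79, adjusted p = 6.52e-11).

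On top of polyU, PNPi+dG/rG raised Csf3r by 1.65 on the log2 scale (adjusted p = 3.69e-08), and its interaction was 1.76 (SE 0.15, adjusted p = 1.05e-06). In the order of means, PNPi+dG/rG and vehicle did not differ (adjusted p = 0.838). The combination and R848, at −0.23, were just short of the threshold (adjusted p = 0.0638). They were past it with voom, with a pseudocount of 0.1 or 1, or with a block on the replicate numbers. Their difference ranged from −0.39 to −0.07 when 1 library was left out. With centred libraries the latter difference was −0.61 and past the threshold (adjusted p = 2.94e-04, in a range of 2.94e-04 to 0.527 over all alternatives). Without polyU library 1 or without vehicle library 2, the polyU change of Csf3r passed 2-fold, at up to 1.02. G-CSF receptor transcripts thus differed by less than 2-fold between the combination and R848 on both scales, while transcripts of its ligand differed 30.5-fold.

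Because Csf3r is a known neutrophil gene, the neutrophil and precursor list was read beside it. Of its 11 genes, 1 had at least 3 reads in all libraries, S100a8 was the most abundant, and the defining genes Ly6g and Retnlg were at 0 in all libraries. Its summed level was 4.83 and 5.79 CPM in vehicle, 7.05 and 4.53 with polyU, 4.82 and 4.63 with PNPi+dG/rG, 9.98 and 9.99 with the combination, and 23.0 and 25.2 with R848. The sum was highest in R848 and next in the combination, while the polyU libraries, in which Csf3r was raised, lay on either side of those of vehicle. Its part in the result was not tested.

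Sums of other lists also differed between groups. The fibroblast and stroma list, 10 genes of which 1 had at least 3 reads in all libraries, was led by Pdpn, had no gene at 0 throughout, and summed to 153 and 147 CPM in vehicle, 136 and 132 with polyU, 128 and 126 with PNPi+dG/rG, 106 and 104 with the combination, and 475 and 504 with R848. This sum was highest in R848, as was Csf3, but lowest in the combination. The endothelial list, led by Kdr, with 3 of 5 genes at 3 reads or more in all libraries and none at 0 throughout, went from 246 and 240 CPM in vehicle to 143 and 143 with the combination and 64.5 and 69.8 with R848. It stood at 221 and 245 with polyU and at 208 and 207 with PNPi+dG/rG. The part of both lists in the ligand changes was not tested.

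The GM-CSF receptor needs an α and a β chain, and the genes of these chains behaved differently. Csf2ra, the α chain, stood between 373 and 458 CPM in all 10 libraries: 391 and 428 in vehicle, 447 and 458 with polyU, 416 and 409 with PNPi+dG/rG, 450 and 447 with the combination, and 373 and 388 with R848. For its level, it was the member with the narrowest range. Its log2 change was 0.15 with polyU (adjusted p = 0.0172), 0.13 with the combination (adjusted p = 0.0170; centred 0.34) and −0.11 with R848 (adjusted p = 0.0398), and with centred libraries the R848 change was 0.49, of the opposite sign. The change with polyU was not past the threshold with centred libraries (0.10, adjusted p = 0.0814). None of these changes held in all settings: over all alternatives the adjusted p reached 0.227 with polyU, 0.234 with the combination and 0.435 with R848, and with plain eBayes none passed. In the order R848, vehicle, PNPi+dG/rG, the combination, polyU, vehicle and PNPi+dG/rG were not told apart on either scale (adjusted p = 0.988; centred 0.955). The combination and polyU were not told apart on the deposited scale, at −0.01 (adjusted p = 0.793), but the difference was 0.24 with centred libraries (adjusted p = 2.88e-04).

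Csf2rb, the common β chain, separated R848 from all other groups. Its level was 345 and 349.8 CPM in vehicle, 319 and 316 CPM with polyU, 321 and 329.5 CPM with PNPi+dG/rG, 389 and 408 CPM with the combination, and 899.6 and 947 CPM with R848. The R848 libraries were above the rest by a wide margin, and the libraries of the combination lay a little above the other 6. The log2 change was 1.41 with R848 (SE 0.04, adjusted p = 2.88e-14), a ratio of 2.66, and 0.20 with the combination (adjusted p = 5.65e-04; centred 0.41), a ratio of 1.15. The combination differed from R848 by −1.21 (adjusted p = 1.16e-12), the only difference between these groups that was called for a receptor gene on the deposited scale. Its interaction was 0.42 (adjusted p = 2.60e-05; centred 0.71), under 2-fold, and at the low end polyU and PNPi+dG/rG (adjusted p = 0.553) and PNPi+dG/rG and vehicle (adjusted p = 0.498) were not told apart.

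Csf2rb2, the β chain specific to IL-3, had 382 and 393 CPM in vehicle, 343 and 337 CPM with polyU, 337 and 345 CPM with PNPi+dG/rG, 299 and 300.2 CPM with the combination, and 465 and 489 CPM with R848. The groups lay in the order the combination, polyU, PNPi+dG/rG, vehicle and R848, of which polyU and PNPi+dG/rG overlapped (adjusted p = 0.947). Against vehicle, Csf2rb2 changed by −0.37 on the log2 scale in the combination (SE 0.04, adjusted p = 6.59e-07; centred −0.16) and by 0.30 in R848 (adjusted p = 4.27e-06; centred 0.89), so that this gene moved opposite ways under these treatments. The combination differed from R848 by −0.67 (adjusted p = 7.41e-10), and by −1.05 with centred libraries, past 2-fold. Against polyU the difference was −0.18 (adjusted p = 0.00103), but 0.07 with centred libraries, of the opposite sign. With PNPi+dG/rG alone it was −0.18, the only member past the adjusted p there (0.0466), and it was past it no longer without any 1 library of vehicle, PNPi+dG/rG, the combination or R848, nor with no filter, only the groups compared or plain eBayes (0.0502 to 0.398).

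**Figure D2:**
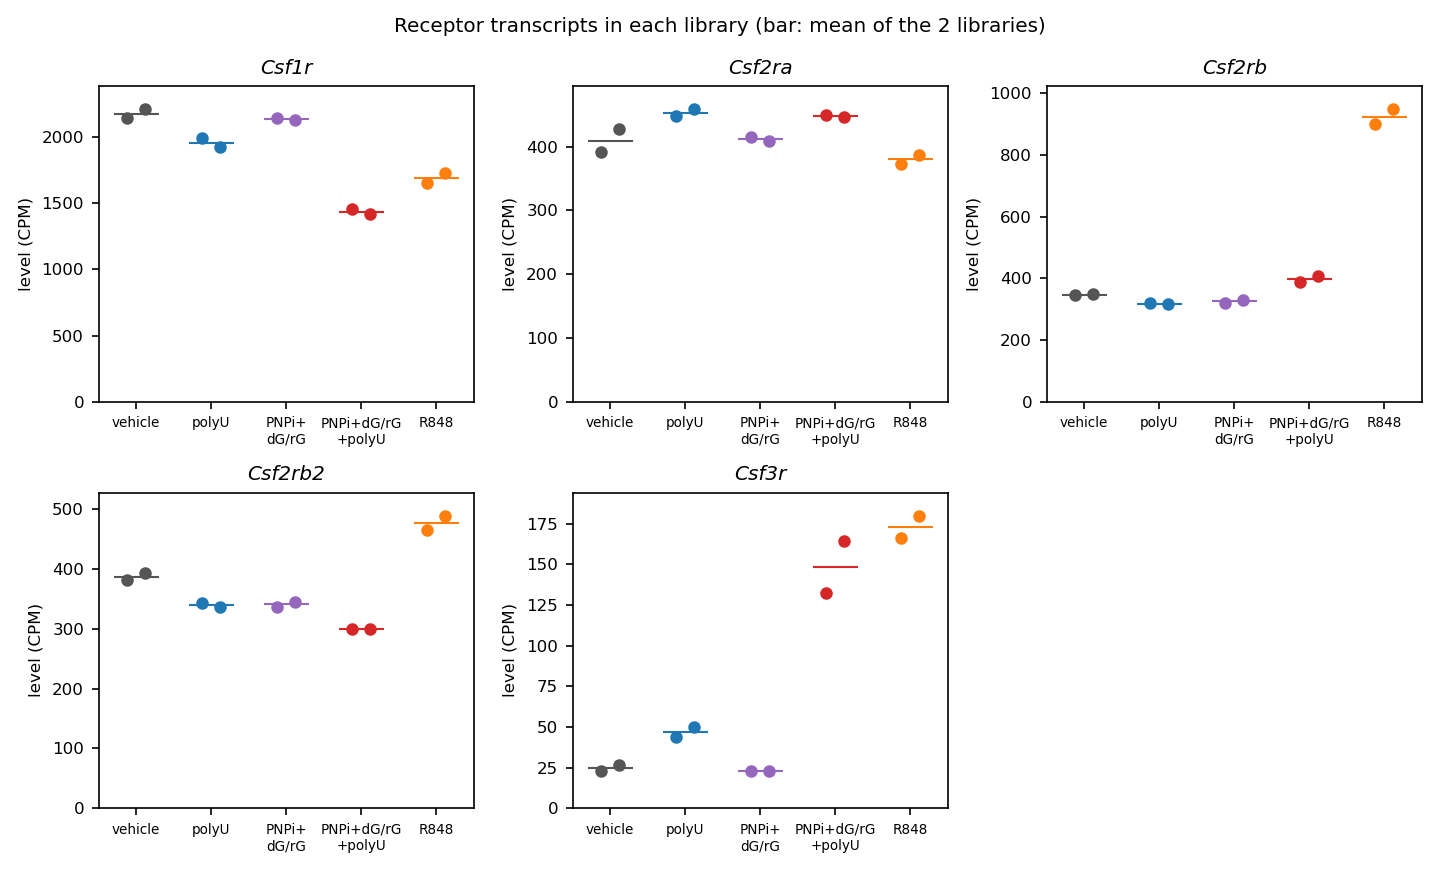
Level of the 5 receptor genes in each of the 10 libraries, in CPM on linear axes from 0, by treatment group. Points are libraries and horizontal bars are the means of the 2 libraries. Csf2rb stood at 899.6 and 947 CPM with R848 and below 409 CPM elsewhere, whereas Csf3r was high in both R848 and the combination.

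The ratio of the β chain genes within a library does not depend on its scaling. In CPM, Csf2rb over Csf2rb2 was 0.904 and 0.891 in vehicle, 0.932 and 0.937 with polyU, 0.953 and 0.955 with PNPi+dG/rG, 1.30 and 1.36 with the combination, and 1.93 and 1.94 with R848. The groups did not overlap in this ratio. Which of these transcripts is the more abundant in the combination depends on the length taken for Csf2rb, 7.28 kb as the union of its exons or 4900 bases as its transcript, against 4740 bases for Csf2rb2 in both cases. With either length, Csf2rb is the more abundant in R848 and Csf2rb2 in the other 3 groups. The CPM ratio of Csf2rb to Csf2ra was 0.883 and 0.817 in vehicle, 0.714 and 0.689 with polyU, 0.773 and 0.806 with PNPi+dG/rG, 0.864 and 0.914 with the combination, and 2.41 and 2.44 with R848. In this ratio R848 stood apart, and vehicle and the combination overlapped.

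The β chain genes are close copies, which bears on how their reads could be assigned. Csf2rb lies on the plus strand at chr15:78325752-78353847 and Csf2rb2 on the minus strand at chr15:78282507-78305721, with 20.0 kb between their starts. Their coding sequences, of 2688 and 2634 bases, were identical at 95.2% of 2628 aligned bases, with a longest identical run of 242 bases. Of all 50-base windows of the transcript, the read length, 18.4% in Csf2rb (894 of 4851) and 19.4% in Csf2rb2 (912 of 4691) also occur in another gene, 892 of them in the partner. Reads from such windows cannot be assigned by sequence, and the rule by which they were counted is not stated, so the level of each gene may hold or lack reads of the other. A stretch of the last coding exon is printed to show how few bases separate the genes: coding bases 2295 to 2354, at chr15:78348789-78348848 (plus strand, exon 15) for Csf2rb and chr15:78284600-78284659 (minus strand, exon 14) for Csf2rb2. The 2 bases that differ are in capitals.
Csf2rb: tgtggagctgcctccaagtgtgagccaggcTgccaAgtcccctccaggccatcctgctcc
Csf2rb2: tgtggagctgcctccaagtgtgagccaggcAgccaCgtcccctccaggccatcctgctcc

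The other members are scattered over the genome, apart from Csf2 and Csf3 on chromosome 11. Csf1 lies at chr3:107741048-107760469 (minus strand), Csf2 at chr11:54247271-54249667 (minus), Csf3 at chr11:98701263-98703629 (plus), Csf1r at chr18:61100598-61132149 (plus), Csf2ra at chr19:61223957-61228429 (minus) and Csf3r at chr4:126024550-126044440 (plus). No 50-base window of Csf1, Csf2, Csf3, Csf1r or Csf2ra occurred in another gene, while 11.2% of those of Csf3r did. These were 385 of 3432 windows, 325 of them found in AC105061.2, so the level of Csf3r may also hold or lack reads of other genes. Il3, the neighbour of Csf2 at 15.6 kb on the same strand, had 0 reads in all libraries. Pdgfrb, the neighbour of Csf1r at 15.5 kb on the same strand and a receptor of the same kinase family, stood at 0.140 CPM in vehicle, 3.74 CPM with the combination and 38.0 CPM with R848, while Csf1r stood at means of 2173, 1436 and 1690 CPM.

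**Figure D3:**
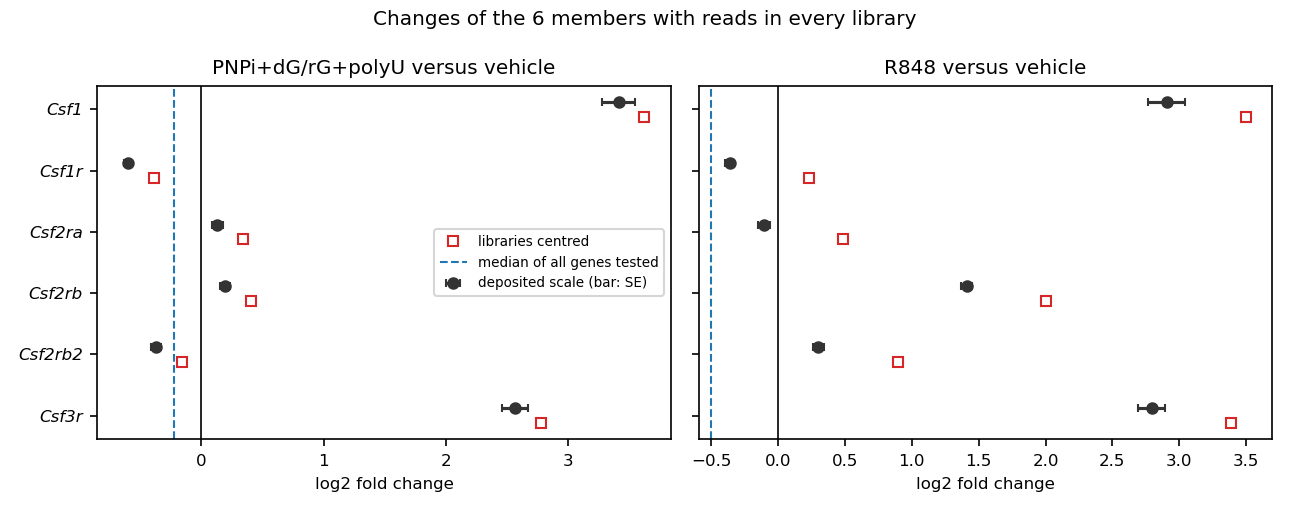
Log2 fold change against vehicle of the 6 members with reads in every library, for the combination and R848. Filled points with SE bars are values on the deposited scale, open squares are values with centred libraries, and the dashed line is the median of all genes tested, −0.22 and −0.50. Csf1 and Csf3r were above 2.5 in both, and the R848 changes of Csf1r and Csf2ra changed sign with centred libraries.

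Partners of the family were sparse. Of 5 partner ligand and chain genes, Il3ra, the IL-3 receptor α chain, was the 1 that was tested, at 66.9 CPM in vehicle. It was not called: its change was 0.04 with the combination (adjusted p = 0.505; centred 0.26) and −0.31 with R848 (adjusted p = 1.56e-04), the latter 0.29 with centred libraries. Il3 and Il5 had 0 reads, and Il34, the other ligand of the M-CSF receptor, and Il5ra did not pass the filter. Transcripts for all chains of an IL-3 receptor were thus present, and those of its ligand were not detected at this depth.

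Of 19 genes for JAK-STAT signaling below the GM-CSF and G-CSF receptors, 18 were tested. With the combination 8 rose and 1 fell, beside 8.12% and 14.3% of all genes, and with R848 9 rose and 1 fell, beside 8.89% and 30.3%. The medians were 0.90 and 0.94, and 1.11 and 1.53 with centred libraries. The feedback inhibitors of cytokine receptors led the list. Socs3, which binds the G-CSF receptor and shuts off its signal, went from 4.21 CPM in vehicle to 1985 CPM with the combination and 2088 CPM with R848, log2 changes of 8.89 and 8.96 (adjusted p = 4.13e-07 and 2.34e-07), with 43.4 CPM under polyU alone. Socs1 rose by 5.68 and 5.42, and Cish, a target of STAT5 that passed the filter only through these groups, by 4.75 and 6.80. The kinase gene Pim1 rose by 3.22 and 3.34, and Jak2, the kinase bound to the β chain, by 3.11 and 3.96. Bcl2l1, a survival gene below STAT5, fell, with changes of −1.21 and −1.45, which came under 2-fold with centred libraries (−0.99 and −0.85). With polyU alone, Socs3 and Socs1 were among those called higher and 0 were lower, beside 3.21% and 0.776% of all genes. For the interaction, 7 were called above 0 and 0 below, beside 4.55% and 8.87%. Stat3 and Cish were called lower in the combination than in R848.

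All 17 genes of M-CSF receptor signaling and shedding were tested, with medians of 0.01 in the combination and 0.11 in R848 (0.23 and 0.70 with centred libraries). With the combination 2 rose and 2 fell, and with R848 5 rose and 2 fell, beside the same shares of all genes. The genes that rose include both a kinase and a partner of the protease that sheds the receptor. Src, a kinase recruited by the receptor, rose by 2.65 and 3.42, and Rhbdf2, which escorts the shedding protease Adam17, by 2.73 and 2.90. Fgr, a kinase of the Src family, rose by 1.80 with R848, but was not called in the combination, where its change was 0.48. Adam17 itself was just past 2-fold with R848, at 1.00, and just short of it with the combination, at 0.97 (centred 1.18). Inpp5d, which encodes the phosphatase SHIP, changed by −2.09 and −2.45, and the ubiquitin ligase gene Cblb by −1.65 and −2.37. Timp3, an inhibitor of that protease, had 3 reads over the vehicle libraries and 1697 over those of R848, a ratio of 391 (95% exact counting interval 134 to 1899), and 4 reads with the combination. It passed the filter only through R848, and so had to differ between some groups, and its R848 call was lost when vehicle and R848 were fitted alone (adjusted p = 0.0805), and its fitted fold depends on the offset.

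Of 7 transcription factor genes known to act on the Csf1r locus, all were tested. With the combination 2 rose and 3 fell, with a median of −0.78 (centred −0.57), and with R848 3 rose and 2 fell, with a median of −0.30 that became 0.29 with centred libraries, beside the same shares of all genes. Spi1, which encodes PU.1, the main activator of Csf1r, rose by 1.15 with R848, and its change was 0.97 with the combination (centred 1.18). Ets2 rose by 1.74 and 2.12 and Cebpb by 1.43 and 2.30. Cebpa changed by −1.72 and −2.06 and Fli1 by −1.45 and −1.67. Irf8, a factor of the macrophage and dendritic lineages, fell by 1.59 with the combination. It was the factor in the list called between these groups.

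Of 8 genes for regulators of mRNA stability, 2 rose and 2 fell with the combination, and 2 rose and 1 fell with R848. Both stand beside the same shares of all genes. The medians were −0.27 and 0.10, and −0.06 and 0.70 with centred libraries. Zfp36, which encodes tristetraprolin, rose by 2.94 and 2.15, and Zc3h12a, the endonuclease Regnase-1, by 3.39 and 4.28. The paralogs of Zfp36 moved the other way: Zfp36l2 changed by −4.35 and −3.82, and Zfp36l1 fell by 2.36 with the combination, with a change of −0.46 in R848 that became 0.13 with centred libraries. Levels of Zfp36 were 147 CPM in vehicle, 1132 with the combination and 653 with R848.

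Other hematopoietic growth factors and receptors, 10 of 15 tested, moved in both directions, 4 up and 4 down in each of the combination and R848, where 14.3% and 30.3% of all genes were lower and 8.12% and 8.89% higher. Their medians of −0.14 and −0.35 became 0.07 and 0.24 with centred libraries. Lif, a cytokine of the IL-6 family, passed the filter only through R848, and so had to differ between some groups. It had 5 reads over the vehicle libraries, 25 over those of the combination and 1077 over those of R848, ratios to vehicle of 6.28 (95% exact counting interval 2.36 to 21.02) and 149 (63.7 to 460). With a pseudocount of 1 it was under 2-fold in the combination. Il4ra rose by 1.64 and 2.74, Il13ra1 by 1.13 and 1.99, and Il7 by 1.75 and 1.44, both under 2-fold with a pseudocount of 1, and Il7 passed the filter only through these groups. Kitl, which encodes stem cell factor, fell, with changes of −3.31 and −5.90, from 87.2 CPM in vehicle to 8.82 and 1.46, and was the gene of this list called with polyU alone, where it was lower. Its receptor gene Kit changed by −2.65 and −4.21 and Il7r by −2.34 and −3.05. Lifr fell by 1.15 with the combination, and by less than 2-fold with centred libraries or a pseudocount of 1, while Flt3l fell by 1.71 with R848.

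The mast cell and basophil list holds Kit itself, its most abundant gene at a mean of 6.68 CPM, so its sum is not independent of Kit. The list had 1 of its 5 genes at 3 reads or more in all libraries. It summed to 13.8 and 14.3 CPM in vehicle, 7.22 and 11.2 with polyU, 7.11 and 7.35 with PNPi+dG/rG, 2.83 and 1.76 with the combination and 0.584 and 1.01 with R848, with Ms4a2 and Tpsb2 at 0 in all libraries. The part of mast cells or basophils in the fall of Kit was not tested. The remaining lists were low: T and NK cell genes summed to between 4.14 and 14.6 CPM, led by Cd4, with Cd3d and Cd3e at 0, B cell genes to between 0.0703 and 0.651 CPM and dendritic cell genes to between 0.0561 and 0.991 CPM.

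Genes with the pattern most like each member were sought among 9046 genes whose mean reached 10 CPM in some group. Likeness was the root mean square difference, over the 10 libraries, of log2 levels with 1 CPM added and vehicle set to 0. For Csf1 the nearest were Arl5c (0.17), Slc31a2 (0.23) and Lacc1 (0.23), and for Csf3r they were Slc2a6 (0.08), Pik3r6 (0.14) and Nfkb1 (0.16). Csf3 had no close match, with Lcn2 (0.41), Serpinb2 (0.59) and Inhba (0.69). For Csf1r the nearest were Chd8 (0.04), Rapgef1 (0.05) and Exoc8 (0.06). Csf2rb was nearest to Aff1 (0.05), Col18a1 (0.06) and Lrrc8d (0.07), and Csf2rb2 to Psd4 (0.03) and Ifrd1 (0.07). The low level of Csf2 and the flat level of Csf2ra make the likeness of their nearest genes, P2ry2 (0.09) and Mff (0.03), weak descriptions.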

How the data were processed

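The authors deposited 1 table of normalized CPM values, with an offset of 0.0001 on every value, for RNA from BMDMs in 5 groups of 2 libraries. They mapped 50-base reads with STAR 2.27a to GRCm38 and counted on Ensembl release 97. Depth was recovered from the steps between low values, of which 100% were whole reads within 0.1 read. limma 3.58.1 in R 4.3.3 (eBayes with trend and robust, statmod 1.5.0) was fitted to log2 of the deposited values of all 10 libraries. It covered the 11978 genes that reached 1 CPM in 2 or more libraries, with Benjamini-Hochberg adjustment within each comparison. Levels per length used the union of exons in GENCODE M21 (Ensembl release 96). From each pathway list, at most 4 called genes per direction were named for PNPi+dG/rG+polyU and R848 against vehicle, by size of change; Stat3, Adam17, Pdgfrb and values outside this rule were chosen after they were seen. The members and lists were chosen with earlier results of these data known. Alternatives were pseudocounts, filters, centring, plain eBayes, fewer groups, a replicate block, voom and leaving out libraries. On simulated reads, the fit recovered 198 of 200 changed genes and called 11 unchanged genes. The changed genes were never set to 0 reads in a group, so the simulation does not cover changes like that of Csf2.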

Additional observations from a re-analysis of the deposited data

Results flagged for a closer look

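The effect of PNPi+dG/rG differed between cultures with and without polyU by the test of the difference itself, and for 2 members it did so by at least 2-fold. The interactions of Csf1r (−0.42) and Csf2rb (0.42) were also past the adjusted p, but under 2-fold, on both scales. For Csf1 the interaction on the log2 scale was 1.36, with means of 5.73 CPM in vehicle, 7.16 in PNPi+dG/rG, 18.6 in polyU and 60.1 CPM in PNPi+dG/rG+polyU. For Csf3r it was 1.76, with means of 25.0, 23.0, 47.0 and 148 CPM in the same order. Both kept their direction and their call when any single library was left out.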

How the results depend on the processing

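Depth limits Csf2 and Csf3, whose fitted changes rest on groups with 0 to 6 reads, and levels under 3 reads were taken as not detectable. With a filter on the mean, Csf2 was not tested and has no value. Each group has 2 libraries, so that a fit without 1 of them assumes that the lone library varies like the other groups. The cause of the changes below was not tested, unless a setting's own construction shows it. Among log2 changes of members and list genes refitted with all libraries, 1017 kept direction and side of the adjusted p threshold, 33 newly passed it, 19 no longer passed it and 14 reversed.

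With centred libraries, log2 changes reversed for Csf1r in R848 (0.23), for Csf2ra in R848 (0.49), PNPi+dG/rG (−0.0219), the combination against polyU (0.24) and against R848 (−0.14) and the interaction (0.26), and for Csf2rb2 in the combination against polyU (0.0728). Csf2, at 0 reads in both groups compared, took values of −0.0437 in polyU and −0.0324 in PNPi+dG/rG on that scale, and 0.0334 and −1.09 with voom, which reflect scale and depth alone. Csf3 in PNPi+dG/rG, on at most 3 reads a library, became −0.37 with a pseudocount of 0.1, −0.0748 with 1 and −0.91 with voom.

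Members called in R848 went from 5 to 3 with only the groups compared. In the combination against polyU they went from 2 to 4 with only the groups compared, a pseudocount of 0.1 or voom. Against R848 they went from 1 to 2 with centred libraries or plain eBayes, and to 3 with only the groups compared, a pseudocount of 0.1 or 1, or voom. For the interaction they went from 2 to 4 with a pseudocount of 0.1 or voom. Genes called in polyU went from 478 to 303 with a pseudocount of 1. Those in PNPi+dG/rG went from 9 to 4 with a filter on the mean or only the groups compared, 16 with no filter, 1 and 0 with pseudocounts of 0.1 and 1, and 3 with voom.

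Leaving out 1 library at a time, members called ranged from 1 to 3 in polyU, 0 to 1 in PNPi+dG/rG, 2 to 4 in the combination, 4 to 5 in R848, 2 to 4 for the combination against polyU, 1 to 2 against R848 and 2 to 3 for the interaction. Genes called in PNPi+dG/rG ranged from 2 to 29, and its pathway list genes from 0 to 1. Csf3 in PNPi+dG/rG ranged from −2.67 to 8.05 and in the interaction from −2.89 to 7.83, through the vehicle library with 0 reads. Csf2ra ranged from −0.0551 to 0.0762 in PNPi+dG/rG, from −0.0323 to 0.00274 for the combination against polyU and from −0.0910 to 0.0403 in the interaction. Csf2rb2 in the interaction ranged from −0.0185 to 0.0214 on the deposited scale. With all libraries kept and centred, that interaction was 0.29 in limma (adjusted p = 4.64e-04).

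Libraries of the same number did not deviate together (median correlation −0.02, from −0.29 to 0.11, across 8459 genes in 10 pairs of groups), so the numbers were not taken as pairs. A block on these numbers was also fitted, in which the combination against vehicle had 971 genes higher and 1708 lower, against 973 and 1712 without it. There 3 members were called, without Csf2, and the count of members called was the same as without the block in the other 6 comparisons. A block that swaps the numbers within PNPi+dG/rG, added after the data were seen, gave 978 higher and 1713 lower, with 3 members called. Of the 53 results on pathway list genes, none reversed under any alternative, and Timp3 in R848, with only the groups compared, was the 1 no longer past the adjusted p. Changes under 2-fold were those of Lifr in the combination (centred −0.94, pseudocount of 1 −0.82, without vehicle library 2 −0.996), of Bcl2l1 in the combination and R848 (centred −0.99 and −0.85) and, with a pseudocount of 1, of Lif in the combination (0.72) and Il7 in the combination and R848 (0.90 and 0.71). With a pseudocount of 0.1 in the measure of likeness, the genes kept of the 3 nearest were 1 for Csf1, 0 for Csf2, 1 for Csf3, 2 for Csf1r and 2 for Csf3r.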
